A study of Saccharomyces cerevisiae with 4 samples.

Results

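The genes that make amino acids were followed through a bile acid treatment in a budding yeast strain that cannot make leucine, lysine or histidine for itself. The set holds 39 genes chosen by systematic name from the 7127 features of the count table: 38 enzymes or enzyme subunits of the arginine, histidine, leucine, isoleucine-valine, lysine, tryptophan and aromatic, homoserine, and glutamate and glutamine pathways, and GCN4, the transcription factor that activates most of them. Haploid BY4742 cells (MATα his3Δ1 leu2Δ0 lys2Δ0 ura3Δ0), growing exponentially in the rich glucose medium YPD, received the bile acid tauroursodeoxycholic acid (TUDCA) at 5 mM for 2 h, or none (Ctrl). All 4 libraries share that genotype and medium, so the deletions and the supplied amino acids are common to both groups. There were 2 libraries per group, and the labels do not say whether they are separate cultures. If they are not, the p-values rest on a technical spread between samples alone.

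Libraries held 74080860 to 97133389 counts assigned to genes. LEU2 and URA3 had 0 counts in each library, which allows up to 3 counts per library, and LYS2 had 0 to 2, as the genotype states. Ctrl replicate 2 stood apart: cytosolic ribosomal protein genes took 13.3% of its counts and 9.76% to 10.4% of those of the other libraries. The 4 markers of α cells were present, with summed levels of 1930 to 2334 CPM (counts scaled by library total and TMM factors) in Ctrl and 1509 to 1586 CPM in TUDCA. All 4 had fitted values lower in TUDCA, with a median log2 fold change of -0.66. SAG1 was at 169 and 181 CPM in Ctrl and 85.5 and 89.2 CPM in TUDCA (edgeR adjusted p = 0.00465). The 6 markers of a cells, the other mating type, summed to 54.5 to 60.8 CPM in Ctrl and 57.5 to 62.3 CPM in TUDCA, and none of them was at 0.

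Yeast makes amino acids from intermediates of central metabolism, and many of the enzymes share a control. When an amino acid runs short, the kinase Gcn2 slows general translation while the GCN4 mRNA is translated more, and the Gcn4 protein binds the sequence TGACTC in promoters across these pathways. Single pathways have controls of their own: the ArgR complex represses arginine genes when arginine is present, Leu3 activates leucine and valine genes when it binds an intermediate of leucine synthesis, and Lys14 activates lysine genes when it senses an intermediate made by Lys2. Cells grown in rich medium take up most amino acids through permeases.

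A set of 5 promoters shows how these controls are written in the sequence. Each stretch is the 300 bases before the start codon, on the coding strand of the reference genome of strain S288C (RefSeq, build R64, the build of the files), with capitals marking the letters TGACTC (Gcn4), a pair of CCGG with any 2 bases between (Leu3) or TCCNNNGGA (Lys14), searched on both strands. ARG1 is shown for the lowest fitted value of the set, HIS4 for its several Gcn4 motifs, BAT1 and LYS1 for a second regulator's motif beside that of Gcn4, and GDH1 as the member on the opposite side of 0.
ARG1 (chrXV:218911-219210, plus strand): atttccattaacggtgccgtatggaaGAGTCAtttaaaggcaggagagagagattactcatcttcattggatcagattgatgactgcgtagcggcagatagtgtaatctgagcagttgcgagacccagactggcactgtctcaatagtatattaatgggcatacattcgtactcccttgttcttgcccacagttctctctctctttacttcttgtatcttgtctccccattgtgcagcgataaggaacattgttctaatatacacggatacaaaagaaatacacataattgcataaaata
HIS4 (chrIII:68334-68633, minus strand): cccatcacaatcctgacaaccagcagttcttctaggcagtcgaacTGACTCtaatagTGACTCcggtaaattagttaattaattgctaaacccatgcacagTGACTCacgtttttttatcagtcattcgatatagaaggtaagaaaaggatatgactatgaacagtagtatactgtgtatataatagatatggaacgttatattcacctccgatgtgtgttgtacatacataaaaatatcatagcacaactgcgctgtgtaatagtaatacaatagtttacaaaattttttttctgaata
BAT1 (chrVIII:517232-517531, plus strand): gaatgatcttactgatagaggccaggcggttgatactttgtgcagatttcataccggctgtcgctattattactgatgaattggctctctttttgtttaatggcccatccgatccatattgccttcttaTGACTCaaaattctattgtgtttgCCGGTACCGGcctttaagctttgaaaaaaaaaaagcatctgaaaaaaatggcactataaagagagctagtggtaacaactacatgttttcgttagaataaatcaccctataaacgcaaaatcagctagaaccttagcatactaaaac
LYS1 (chrIX:420737-421036, minus strand): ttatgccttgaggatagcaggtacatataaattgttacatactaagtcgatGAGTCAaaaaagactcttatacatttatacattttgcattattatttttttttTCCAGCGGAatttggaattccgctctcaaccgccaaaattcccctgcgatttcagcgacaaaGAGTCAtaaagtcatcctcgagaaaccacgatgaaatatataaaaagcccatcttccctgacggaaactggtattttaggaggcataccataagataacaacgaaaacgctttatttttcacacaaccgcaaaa
GDH1 (chrXV:1043043-1043342, minus strand): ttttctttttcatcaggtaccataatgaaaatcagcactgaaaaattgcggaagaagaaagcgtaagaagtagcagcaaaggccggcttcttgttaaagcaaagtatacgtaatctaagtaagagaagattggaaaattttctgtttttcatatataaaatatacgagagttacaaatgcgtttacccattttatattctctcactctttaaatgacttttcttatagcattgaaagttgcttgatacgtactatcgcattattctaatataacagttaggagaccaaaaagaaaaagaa

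ARG1 held 1 copy of TGACTC or its reverse complement, with 268 bases between it and the start codon, and HIS4 held 3, at 249, 237 and 193 bases. In BAT1 the Gcn4 motif lay 165 bases and the Leu3 motif 137 bases before the start codon. LYS1 held Gcn4 motifs at 243 and 128 bases and a Lys14 motif at 187 bases. The GDH1 window held none of these letters.

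The Gcn4 letters stood in this window of 26 of the 39 members (66.7%) and of 466 of 6001 nuclear protein-coding genes (7.77%), GCN4 itself being without them. By pathway they were in 6 of 7 arginine, 5 of 5 histidine, 2 of 3 leucine, 5 of 7 isoleucine-valine, 2 of 6 lysine, 3 of 6 tryptophan and aromatic and 2 of 2 homoserine genes, and in GLN1 but not GDH1. The Leu3 letters were in LEU1 and BAT1 (5.13% of members, 0.15% of all promoters), and the Lys14 letters in LYS1, LYS9, LYS12 and LEU9 (10.3% of members, 3.15% of all). No matches of different motifs overlapped in any member. A match is a description of the letters and not evidence of binding.

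The comparison of TUDCA with Ctrl asked whether expression of amino acid synthesis genes differed after the bile acid. No member passed the test: edgeR's quasi-likelihood test, adjusted over 6420 genes, called 0 of 39, against 0.0935% of all genes tested. Yet the fitted log2 fold change was below 0 for 38 of the 39, where 51.0% of all genes lay below 0, and the members' median was -0.17 against -0.0037 for all genes. By pathway median in this fit, arginine genes lay lowest and lysine genes nearest to 0, and both ranks changed in some other settings. GDH1, the main enzyme that fixes ammonium into glutamate, was the 1 member above 0. In bulk RNA, a change in the make-up of the culture and a change in RNA per cell cannot be told apart.

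**Figure D1:**
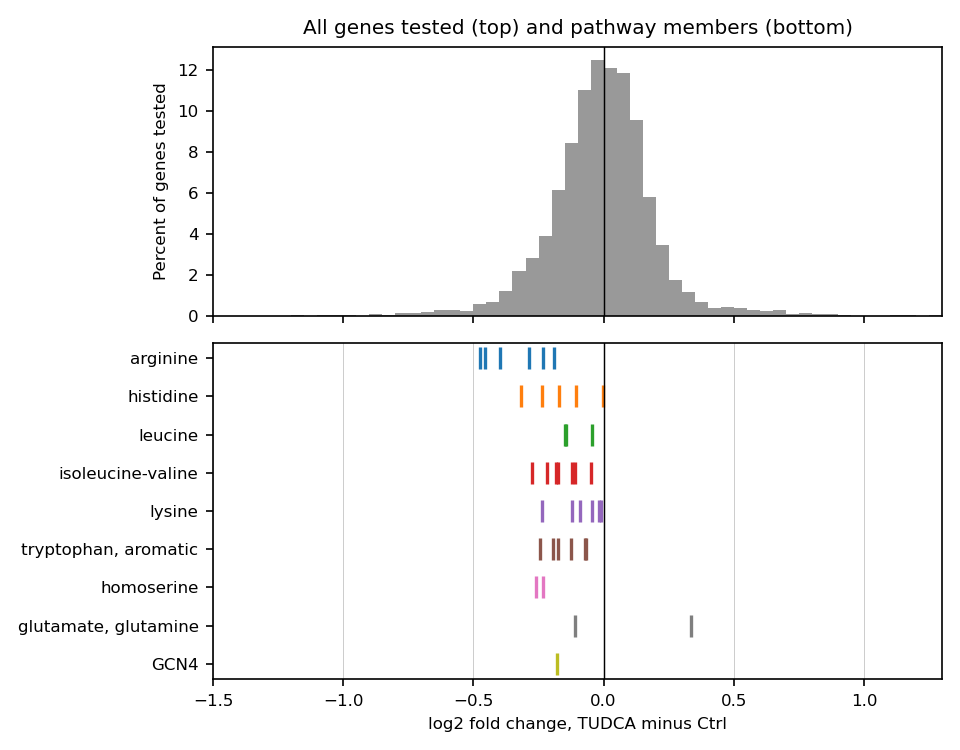
Log2 fold changes of TUDCA minus Ctrl, for all 6420 genes tested as percent of genes per bin (top) and for 38 of the 39 members as 1 tick per gene, in rows by pathway (bottom). All ticks but that of GDH1 lie left of 0, within the bulk of the distribution, and none of these genes passed the test over all genes.

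All 39 passed the filter on low counts. At an unadjusted p under 0.05, 12 members lay lower in TUDCA and 1 higher, against 4.56% and 3.75% of all genes tested. The TUDCA pair of libraries lay wholly below the Ctrl pair for 26 members and wholly above it for 1 (GDH1), and the groups overlapped for 12, where 23.9% of all genes separated downwards and 23.7% upwards. DESeq2 called 2 members, ARG1 lower and GDH1 higher, against 0.44% and 0.455% of the genes it tested, and limma called 0 on voom weights and 0 on the deposited normalized counts. The 26 members with the Gcn4 letters had a median log2 fold change of -0.18 and the 13 without them -0.11, and this difference was not tested.

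Per length, the set spanned a wide range. In RPKM, CPM divided by gene length, which allows levels of different genes to be compared, GLN1 was at 2298 and 2498 in Ctrl and 2223 and 2217 in TUDCA and GCN4 at 1911 and 2198 in Ctrl and 1764 and 1861 in TUDCA. At the other end, ARG3 was at 12.8 and 18.7 in Ctrl and 11.2 and 11.8 in TUDCA. Next above it came ARG8 at 37.6 and 41.8 in Ctrl and 34.2 and 35.3 in TUDCA. The most abundant enzymes after GLN1 were GDH1, ILV5 and HOM2.

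**Figure D2:**
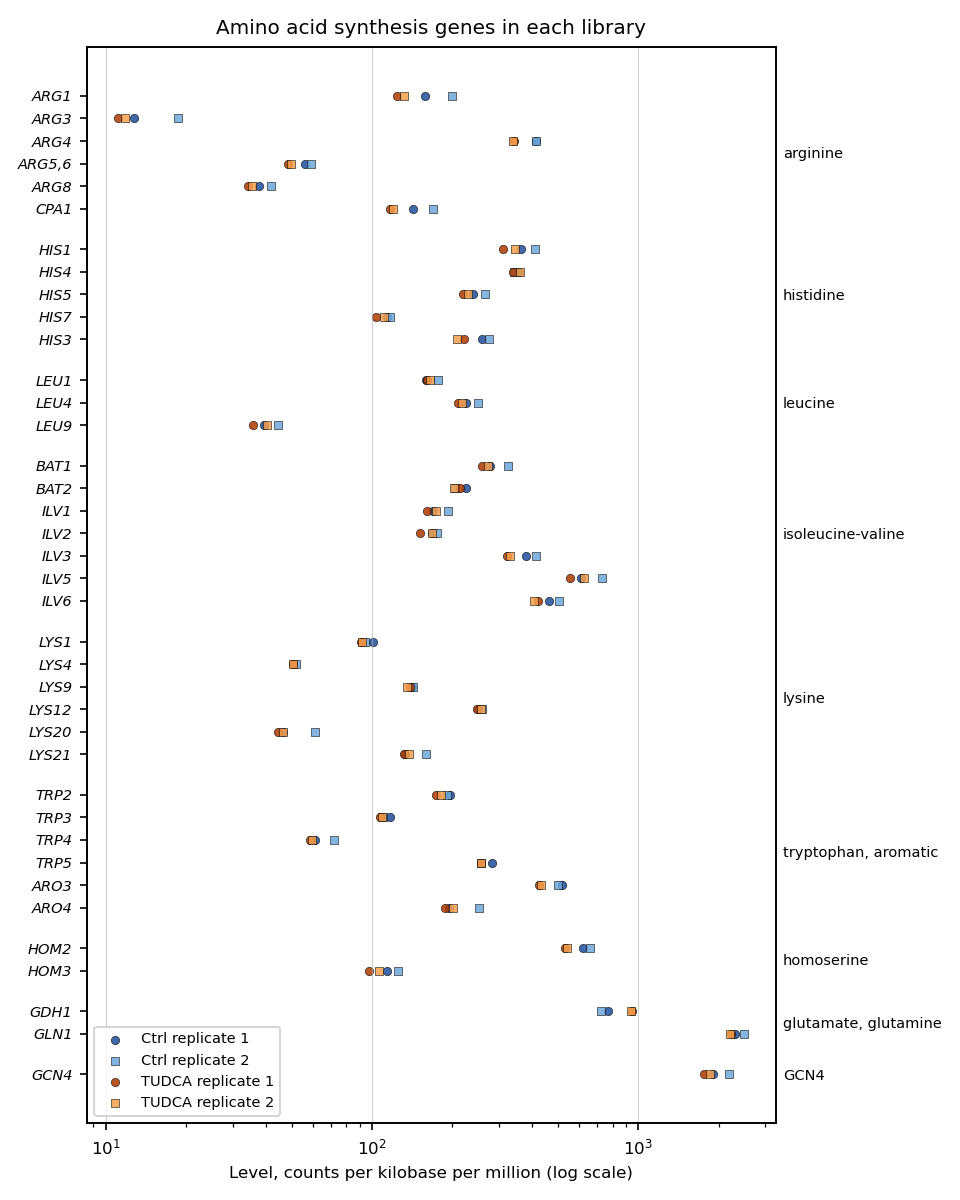
Level of 38 of the 39 members in each of the 4 libraries, in RPKM on a log axis, grouped by pathway, with blue for Ctrl, orange for TUDCA, circles for replicate 1 and squares for replicate 2. The Ctrl replicate 2 square is the rightmost point for most of the genes, and the range between genes is far wider than that between libraries.

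Arginine genes lay below Ctrl throughout: all 7 had fitted values below 0, with a median of -0.29 and a lowest value of -0.48. The groups were apart for all 7, and 5 had an unadjusted p under 0.05. Of all genes tested, 51.0% lay below 0, 23.9% separated downwards and 4.56% were lower at such a p. These shares are also the background for the counts of the other pathways. ARG1 (YOL058W), argininosuccinate synthetase, the penultimate step, was at 199 and 252 CPM in Ctrl and 157 and 167 CPM in TUDCA. Its Ctrl libraries differed more from each other than its TUDCA libraries did, and its mean went from 226 ± 37.4 to 162 ± 6.83 CPM (SD, n = 2). For ARG1 the log2 fold change was -0.48, with a 95% interval -0.75 to -0.20 and an edgeR adjusted p of 0.417. Without Ctrl replicate 2 the value was -0.29 (edgeR adjusted p = 0.147).

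The product of ARG1 is cleaved by ARG4 (YHR018C), argininosuccinate lyase, which was at 576 and 572 CPM in Ctrl and 473 and 469 CPM in TUDCA. Within each group these libraries nearly coincided, and the groups stood clear of each other. This gave -0.29 on the log2 scale (SE 0.090, edgeR adjusted p = 0.544). ARG3 (YJL088W), ornithine carbamoyltransferase, was the least abundant member, at 13.0 and 19.0 CPM in Ctrl and 11.3 and 12.0 CPM in TUDCA, and Ctrl replicate 2 was high among the 4. In log2 terms ARG3 had -0.46 (SE 0.18) and an edgeR adjusted p of 0.544. Without that library the value was -0.15.

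CPA1 (YOR303W), a subunit of the enzyme that makes carbamoyl phosphate for arginine, was at 176 and 209 CPM in Ctrl and 144 and 148 CPM in TUDCA, with Ctrl replicate 2 the highest. Its log2 fold change was -0.40 (95% interval -0.63 to -0.17, edgeR adjusted p = 0.417). Without Ctrl replicate 2, CPA1 had -0.27.

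The mitochondrial ornithine steps had smaller values. ARG5,6 (YER069W), which encodes a precursor of acetylglutamate kinase and the following reductase, was at 145 and 153 CPM in Ctrl and 126 and 128 CPM in TUDCA. The fitted log2 difference of ARG5,6 was -0.23 (SE 0.079, edgeR adjusted p = 0.544). Another feature covers 12.5% of that gene, and reads from the overlap may not have been counted. ARG8, acetylornithine aminotransferase, had -0.19 (edgeR adjusted p = 0.544), again with the groups apart. Of the genes that ArgR represses (ARG1, ARG3, ARG5,6 and ARG8), 0 of 4 passed the test, with a median of -0.34, and of -0.17 without Ctrl replicate 2.

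Histidine genes had a median log2 fold change of -0.17, or -0.095 without Ctrl replicate 2, with all 5 below 0 and the groups apart for 4. HIS3 (YOR202W), imidazoleglycerol-phosphate dehydratase, is the strain's mutated histidine gene, and its partial deletion left it expressed, at 172 and 183 CPM in Ctrl and 146 and 138 CPM in TUDCA. Gene-level counts do not show which part of the gene the reads came from. The log2 fold change was -0.32 (SE 0.083, edgeR adjusted p = 0.492). Its fitted value was the lowest of the pathway.

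HIS1 (YER055C), ATP phosphoribosyltransferase, which catalyses the first and committed step, was at 325 and 366 CPM in Ctrl and 278 and 307 CPM in TUDCA. For HIS1 the log2 fold change was -0.24, with a 95% interval -0.47 to -0.0055 and an edgeR adjusted p of 0.544. HIS5 (-0.17) and HIS7 (-0.11), a transaminase and a glutamine amidotransferase of the middle of the pathway, had unadjusted p over 0.05. HIS4 (YCL030C), a protein with several activities of the pathway and a classical Gcn4 target, was at 855 and 822 CPM in Ctrl and 815 and 859.9 CPM in TUDCA. Its 4 libraries overlapped, with a log2 fold change of -0.0025 and a 95% interval from -0.23 to 0.23, and its sign turned positive under library-size scaling (0.041), without Ctrl replicate 1 (0.038), without TUDCA replicate 1 (0.036), with DESeq2 (0.0011) and with limma on the deposited values (0.0007). With the gene length trend removed, with or without the replicate block, the value was -0.12. HIS4 had 3 Gcn4 motifs, the most of any printed promoter. In edgeR's fit with TMM factors and all 4 libraries it had the value nearest to 0 of the set.

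**Figure D3:**
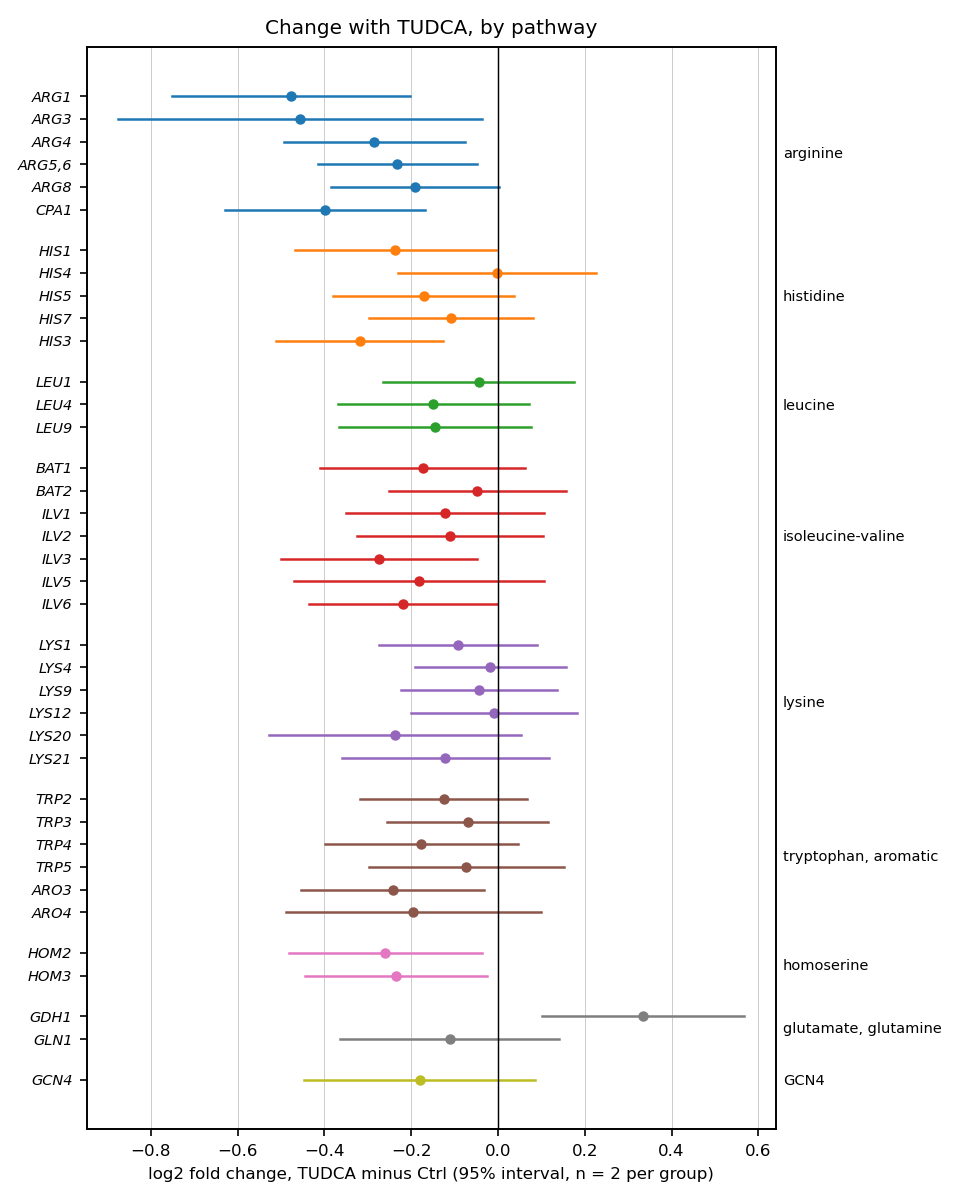
Log2 fold change of TUDCA minus Ctrl for 38 of the 39 members with its 95% interval from edgeR's fit (2 libraries per group), coloured by pathway. Arginine points reach farthest left, to -0.48, lysine points lie between -0.24 and -0.0097, and GDH1 at 0.33 is the only point right of 0.

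Leucine has 3 members here, since LEU2, the isopropylmalate dehydrogenase gene, is deleted. Both isozymes of isopropylmalate synthase, the entry step, had similar fold changes. LEU4 (YNL104C), the major form, was at 419 and 463 CPM in Ctrl and 392 and 403 CPM in TUDCA, with both TUDCA libraries the lowest. This gave -0.15 on the log2 scale (SE 0.095, edgeR adjusted p = 0.565). LEU9 (YOR108W) was at 71.6 and 80.7 CPM in Ctrl and 64.7 and 73.0 CPM in TUDCA, and here the groups overlapped. In log2 terms LEU9 had -0.15 (SE 0.095) and an edgeR adjusted p of 0.575. Without Ctrl replicate 2 the values were -0.074 for LEU4 and -0.055 for LEU9. Per length LEU4 exceeded LEU9 by 5.39-fold to 5.92-fold over the 4 libraries.

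The coding sequences of LEU4 and LEU9 were 79.4% identical, with a longest shared stretch of 41 bases, and another feature covered 11.6% of LEU9. LEU1, the isomerase that works between Leu4 and Leu2, had -0.044 (edgeR adjusted p = 0.849), and was at 0.036 without Ctrl replicate 2. The median of the 3 was -0.15, and -0.055 without Ctrl replicate 2 or -0.061 without TUDCA replicate 1.

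Isoleucine and valine share their enzymes, and all 7 genes of that group lay below 0, with a median of -0.17 and the groups apart for 4. That median was -0.077 without Ctrl replicate 2 and -0.092 without TUDCA replicate 1. ILV3 (YJR016C), dihydroxyacid dehydratase, was at 665 and 723 CPM in Ctrl and 567 and 581 CPM in TUDCA, both TUDCA libraries standing well under both Ctrl libraries. Its log2 fold change was -0.27 (95% interval -0.50 to -0.048, edgeR adjusted p = 0.544). ILV6 (YCL009C), the regulatory subunit of acetolactate synthase, was at 428 and 468 CPM in Ctrl and 391 and 379 CPM in TUDCA. The fitted log2 difference of ILV6 was -0.22 (SE 0.093, edgeR adjusted p = 0.544). Its catalytic partner ILV2 was at 348 and 364 CPM in Ctrl and 313 and 346 CPM in TUDCA, and TUDCA replicate 2 came close to Ctrl replicate 1. The log2 fold change was -0.11 (SE 0.092, edgeR adjusted p = 0.627). Without TUDCA replicate 1, ILV2 had -0.040. Per length ILV2 was at 0.35 to 0.41 of the level of ILV6 in the 4 libraries.

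The branched-chain transaminases complete the pathway, BAT1 in mitochondria and BAT2 in the cytosol. BAT1 was at 327 and 382 CPM in Ctrl and 307 and 322 CPM in TUDCA, Ctrl replicate 2 being the highest. For BAT1 the log2 fold change was -0.17, with a 95% interval -0.41 to 0.063 and an edgeR adjusted p of 0.551. Without Ctrl replicate 2, BAT1 had -0.056. BAT2 (YJR148W) was at 255 and 233 CPM in Ctrl and 243 and 229 CPM in TUDCA, with Ctrl replicate 1 the highest and the groups overlapping. This gave -0.048 on the log2 scale (SE 0.088, edgeR adjusted p = 0.825). The level per length of BAT1 over BAT2 was 1.23 and 1.57 in the Ctrl libraries and 1.21 and 1.34 in the TUDCA libraries, and the Ctrl ratios differed more from each other than the TUDCA ratios did. The coding sequences were 72.2% identical, with no shared stretch over 17 bases.

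ILV5, the reductoisomerase and the most abundant of the group, had -0.18 (edgeR adjusted p = 0.580), and ILV1, the threonine deaminase that starts isoleucine synthesis, -0.12 (edgeR adjusted p = 0.616). Without Ctrl replicate 2 these values were -0.043 and -0.025, and without TUDCA replicate 1 -0.092 and -0.067. Of the 7 targets fixed for Leu3 (LEU1, LEU4, ILV2, ILV5, BAT1, BAP2 and GDH1), 0 passed the test, 5 lay below 0, and the median was -0.11, or -0.043 without Ctrl replicate 2 and -0.040 without TUDCA replicate 1.

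Lysine genes, in a strain without the LYS2 enzyme in the middle of their pathway, lay close to their control level. Their median was the nearest to 0 of the pathways in edgeR's fit with TMM factors and all 4 libraries. All 6 fitted values were below 0, but the median was -0.068, the range ran from -0.24 to -0.0097, 0 had an unadjusted p under 0.05, and DESeq2 also called 0. The groups were apart for LYS1 and LYS9 and overlapped for the other 4. LYS12, homoisocitrate dehydrogenase, had -0.0097 (95% interval -0.20 to 0.18) and LYS4, homoaconitase, -0.017 (-0.19 to 0.16). Both turned positive without Ctrl replicate 2 (0.021 and 0.0011) and under library-size scaling (0.034 and 0.026), and LYS12 also without TUDCA replicate 1 (0.011).

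The saccharopine dehydrogenases that act after the missing step were LYS9, at -0.045 (edgeR adjusted p = 0.816), and LYS1, at -0.091 (edgeR adjusted p = 0.631). The 6 lysine members are also the 6 genes fixed as Lys14 targets. Whether lysine genes differed from arginine genes in their response was not tested.

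The homocitrate synthase isozymes open the pathway. LYS20 (YDL182W) was at 59.5 and 78.4 CPM in Ctrl and 57.2 and 59.8 CPM in TUDCA, so that 1 library, Ctrl replicate 2, stood above the other 3. In log2 terms LYS20 had -0.24 (SE 0.13) and an edgeR adjusted p of 0.546, and the value was -0.022 without that library. LYS21 (YDL131W) was at 176 and 211 CPM in Ctrl and 175 and 182 CPM in TUDCA, again with Ctrl replicate 2 the highest, and had 0.016 without that library. Its log2 fold change was -0.12 (95% interval -0.36 to 0.12, edgeR adjusted p = 0.628). Per length LYS20 was at 0.34 to 0.38 of the level of LYS21.

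These copies are hard to tell apart by sequence. Their coding sequences were 91.9% identical, and they share the following stretch of 278 bases without a difference, printed because reads that lie wholly within it could come from either gene. How such reads were counted is not given in the sources used here, so the split between LYS20 and LYS21 is uncertain.
LYS20 and LYS21 shared coding stretch: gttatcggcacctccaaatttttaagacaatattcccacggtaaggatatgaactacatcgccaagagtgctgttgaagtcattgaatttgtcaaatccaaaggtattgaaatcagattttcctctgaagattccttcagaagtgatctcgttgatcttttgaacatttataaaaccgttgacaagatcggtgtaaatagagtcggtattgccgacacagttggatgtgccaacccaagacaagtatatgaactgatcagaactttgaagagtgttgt

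Tryptophan and aromatic genes had a median of -0.15, with 6 of 6 below 0 and the groups apart for 4. ARO3 (YDR035W), the phenylalanine-inhibited isozyme of the first shared aromatic step (DAHP synthase), was at 573 and 554 CPM in Ctrl and 474 and 479 CPM in TUDCA, a clear gap between groups. The fitted log2 difference of ARO3 was -0.24 (SE 0.091, edgeR adjusted p = 0.544). ARO4, its tyrosine-inhibited partner, was at 216 and 281 CPM in Ctrl and 209 and 225 CPM in TUDCA. Ctrl replicate 2 alone was high, and without it the value was 0.0087. The log2 fold change was -0.19 (SE 0.13, edgeR adjusted p = 0.573). Per length ARO3 exceeded ARO4 by 2.65-fold and 1.97-fold in the Ctrl libraries and 2.26-fold and 2.13-fold in the TUDCA libraries, and the coding sequences were 67.4% identical.

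Anthranilate synthase, the branch point to tryptophan, is made of Trp2 and Trp3. TRP2 (YER090W) was at 298 and 291 CPM in Ctrl and 264 and 276 CPM in TUDCA. For TRP2 the log2 fold change was -0.13, with a 95% interval -0.32 to 0.066 and an edgeR adjusted p of 0.575. TRP3 (YKL211C) was at 169.8 and 159.7 CPM in Ctrl and 156 and 158 CPM in TUDCA, with TUDCA replicate 2 close below Ctrl replicate 2. This gave -0.070 on the log2 scale (SE 0.080, edgeR adjusted p = 0.706). TRP4, the phosphoribosyltransferase that follows, had -0.18 (edgeR adjusted p = 0.547), or -0.046 without Ctrl replicate 2, and another feature covers 12.6% of it. TRP5, tryptophan synthase, had -0.073 (edgeR adjusted p = 0.745) and 0.0087 without Ctrl replicate 1.

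The homoserine steps lead from aspartate to threonine, methionine and isoleucine. HOM3 (YER052C), aspartate kinase, the first of them, was at 181 and 199 CPM in Ctrl and 154 and 168 CPM in TUDCA. In log2 terms HOM3 had -0.23 (SE 0.090) and an edgeR adjusted p of 0.544. HOM2 (YDR158W), aspartate-semialdehyde dehydrogenase, was at 680.1 and 726 CPM in Ctrl and 581 and 593 CPM in TUDCA. Its log2 fold change was -0.26 (95% interval -0.48 to -0.038, edgeR adjusted p = 0.544). In both genes the TUDCA libraries lay under the Ctrl libraries, and the mean of these 2 values was -0.25.

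GDH1 (YOR375C), the NADP-dependent glutamate dehydrogenase, went the other way, at 1047 and 992 CPM in Ctrl and 1295 and 1276 CPM in TUDCA. Both TUDCA libraries lay above both Ctrl libraries, and the mean went from 1019.6 ± 38.6 to 1285 ± 13.5 CPM (SD, n = 2), 26.1% higher. The fitted log2 difference of GDH1 was 0.33 (SE 0.10, edgeR adjusted p = 0.544). DESeq2 called it (adjusted p = 0.0283), edgeR did not, and the fitted value stayed between 0.30 and 0.39 when single libraries were left out. GLN1 (YPR035W), glutamine synthetase, which uses the product of Gdh1, was at 2558 and 2779.8 CPM in Ctrl and 2474 and 2467 CPM in TUDCA. The log2 fold change was -0.11 (SE 0.11, edgeR adjusted p = 0.668).

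GCN4 (YEL009C) was among the most abundant transcripts of the set, at 1617 and 1859.6 CPM in Ctrl and 1493 and 1575 CPM in TUDCA. Its TUDCA libraries were the lowest of the 4, and Ctrl replicate 2 was the highest. For GCN4 the log2 fold change was -0.18, with a 95% interval -0.45 to 0.086 and an edgeR adjusted p of 0.566. Without Ctrl replicate 2 it was -0.074. Since Gcn4 output depends on translation and protein turnover, mRNA counts do not measure its activity.

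Among the other regulators fixed for this set, PCL5 had the smallest p. Its product is the cyclin that directs the kinase Pho85 to mark Gcn4 for destruction, and the gene is itself a Gcn4 target. PCL5 was at 354 and 426 CPM in Ctrl and 254 and 274 CPM in TUDCA, a wide gap between groups. This gave -0.56 on the log2 scale (SE 0.11, edgeR adjusted p = 0.235). DESeq2 called it (adjusted p = 0.000823), where it called 0.44% of the genes it tested lower, and edgeR with all libraries did not. The edgeR value was -0.68 without Ctrl replicate 1 and -0.42 without Ctrl replicate 2.

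The other regulators lay on both sides of 0. Of the 10 in the list 0 passed edgeR's test and DESeq2 called only PCL5, with 7 above 0, 3 below 0 and a median of 0.090 (0.047 without Ctrl replicate 2). GCN2, the starvation kinase, had 0.095 (edgeR adjusted p = 0.608), and its partners GCN1 and GCN20 had 0.098 and 0.14. LEU3 had 0.085, LYS14 0.0062 and the arginine sensor gene ARG81 0.19 (edgeR adjusted p = 0.551). For both ARG81 and GCN20, Ctrl replicate 2 was the lowest library and Ctrl replicate 1 lay close to TUDCA replicate 1. ARG82, another gene of arginine control, had the highest value, 0.22, with its groups apart (unadjusted p = 0.0488, edgeR adjusted p = 0.544). Besides PCL5, those below 0 were GCN3 at -0.13 and ARG80 at -0.17 (edgeR adjusted p = 0.561 and 0.559).

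Enzymes of the same pathways that are outside the set give a wider view. Of 19 such genes 17 were tested, LEU2 and LYS2 being left out by the filter, and edgeR called 0, DESeq2 0, with 1 (ARG7, -0.19, edgeR adjusted p = 0.544) at an unadjusted p under 0.05. Fitted values were below 0 for 15 of the 17, and the median was -0.046. ARG7 makes ornithine by transferring its acetyl group back to glutamate, and was at 247 and 249 CPM in Ctrl and 219 and 215 CPM in TUDCA. The groups did not overlap.

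The size of these differences depended on single libraries, and most on Ctrl replicate 2. That library had the highest level of the 4 for 30 of 39 members, against 38.9% of all genes, and lay above Ctrl replicate 1 for 30 of 39, against 50.3%. The median log2 difference between these Ctrl libraries was 0.12 over the members and 0.0016 over all genes. Cytosolic ribosomal protein genes, 138 by symbol, had a median of 0.41 for the same difference and of -0.29 for TUDCA minus Ctrl, which was -0.068 without Ctrl replicate 2. The part of Ctrl replicate 2 in the members' values was not tested beyond leaving it out. TUDCA replicate 1 had the lowest level of the 4 for 31 of 39 members, against 1512 of all 6420 genes. TUDCA replicate 2 lay above it for 32 of 39, against 3256 of 6420. The median log2 difference between these TUDCA libraries was 0.0455 over the members and 0.0019 over all genes.

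Without Ctrl replicate 2, 33 of the 39 members were below 0 (49.2% of all genes were), their median was -0.095, 8 lay lower at an unadjusted p under 0.05 (3.66% of all genes), and 0 were called (0.667% of all genes). In that fit 19 members lay nearer to 0 by over 1.5 times or changed sign, and 5, 8 and 2 did so without Ctrl replicate 1, TUDCA replicate 1 and TUDCA replicate 2. Pathway medians without Ctrl replicate 2 were -0.19 for arginine, -0.19 for homoserine, -0.12 for tryptophan and aromatic, -0.095 for histidine, -0.077 for isoleucine-valine, -0.055 for leucine and -0.010 for lysine genes. Homoserine genes lay lower than arginine genes without Ctrl replicate 1 (-0.2914 against -0.2678) and without TUDCA replicate 2 (-0.286 against -0.2795). Leucine genes lay nearer to 0 than lysine genes without TUDCA replicate 1 (-0.0612 against -0.0734). Without Ctrl replicate 1, the fit called 20 members, 19 lower and 1 higher, against 13.4% and 17.6% of all genes, and the median was -0.23. In fits with 1 Ctrl library, that library is assumed to vary as the TUDCA libraries do.

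**Figure D4:**
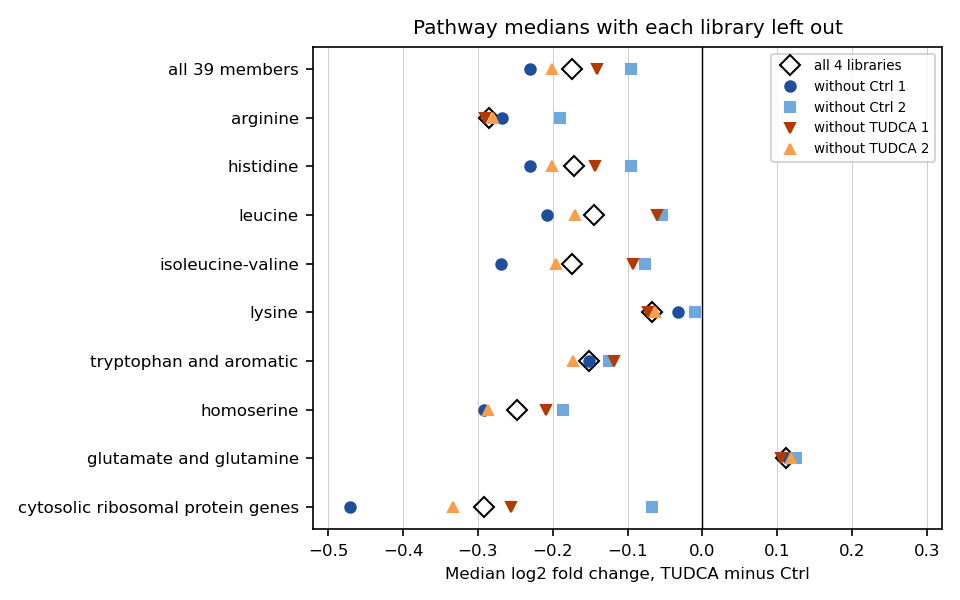
Median log2 fold change of TUDCA minus Ctrl for all members, for each pathway and for cytosolic ribosomal protein genes, with all 4 libraries (open diamonds) and with each library left out. The medians of all 39 members run from -0.23 without Ctrl replicate 1 to -0.095 without Ctrl replicate 2, and those of the ribosomal protein genes from -0.47 to -0.068.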

How the data were processed

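Yeast RNA was made into 4 stranded, poly(A)-selected libraries, per the labels' protocols. The deposited table holds raw counts of each gene in every library. Per the submitters' processing notes, STAR 2.5.4b, featureCounts 1.6.0 and DESeq2 1.26.0 were used with build R64, and the multimapping rule is not given in the sources used here. The deposited signal values are those counts divided by 1 size factor per library (0.899 to 1.15), checked from their ratio. The deposited table also gives feature lengths. Of features wholly covered by features on the opposite strand, 113 of 118 had 0 counts in every library, against 51 of 5701 covered by no other feature. Reads in overlaps may therefore not have been assigned, but whether those covered features are transcribed was not tested.

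Groups follow the labels. In edgeR 4.0.16 (R 4.3.3), filterByExpr with minimum count 10 left 6420 genes, TMM factors scaled the libraries, and TUDCA was tested against Ctrl by the quasi-likelihood test, p-values being adjusted over all of them (Benjamini-Hochberg, threshold 0.05) (common dispersion 0.00695, 2 residual degrees of freedom). Data were simulated for this comparison with 2 libraries per group, 6403 genes and the common dispersion for every gene. No library was shifted in the way that Ctrl replicate 2 stood apart. On these data the test called 86.6% of 67 genes changed 1.5-fold and 100% of 66 changed 4-fold. Those shares may not hold for the measured libraries. No score over the members was tested. Locus tags and coordinates of all 39 members were those of the reference gene table.

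Alternatives were upper-quartile and library-size scaling, DESeq2 1.42.0, limma 3.58.1 on voom weights and on log2 of the deposited values plus a pseudocount of 1, other filters, each library left out, the replicate number as a block and a gene length trend removed (loess, span 0.5). Motifs and coding identities were found with Biopython 1.88. Values in every library are given for GCN4, HIS3, members with an unadjusted p under 0.05 or the smallest p of their pathway, and isozyme or subunit pairs. A single member is counted in the totals but not reported by itself here. From the lists of other enzymes, regulators and permeases the genes with the smallest p are given, and SAG1 as a called gene. Values of HIS4 and ARG7 were added after they were seen. Those of ARG8, GLN1, LYP1, BAP2 and CAR1 lie outside these rules. The members and lists were chosen with earlier results of these data known. Counting limits cover counting error only.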

Additional observations from a re-analysis of the deposited data

How the results depend on the processing

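With no filter, a mean count of at least 100, other scalings in edgeR, limma-voom or limma on deposited values, 0 members were called. The members called were 2 with DESeq2 and 0 to 20 when single libraries were left out, 20 without Ctrl replicate 1. Genes called over all features (6, with 4 lower and 2 higher) became 59 with DESeq2 (29 lower, 30 higher), 1 higher with upper-quartile scaling, and 7 to 2010 with a library left out (5 to 871 lower, 2 to 1139 higher). Of the other list genes, 1 was called by DESeq2 and 0 to 12 with a library left out. The replicate numbers pair nothing that the labels name. Deviations of same-numbered libraries from their group means correlated at r = 0.348 across 5386 genes, which are not independent, and the replicate block called 353 genes (162 lower, 191 higher), 5 members (ARG1, ARG3, CPA1 and HIS3 lower and GDH1 higher, against 2.52% and 2.98% of all genes) and 1 other list gene (PCL5).

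The members' median was -0.22 with upper-quartile scaling, which moved the median of all genes to -0.048. With library-size scaling it was -0.13, with 34 of the 39 members below 0, and the median of all genes was 0.040. The members' median was -0.23 to -0.095 with a library left out. The leucine median ran from -0.21 to -0.055 and the lysine median from -0.073 to -0.010 with a library left out. The lysine median was -0.11 with upper-quartile and -0.025 with library-size scaling, and -0.10 with the length trend removed, with or without the replicate block. The median of GDH1 and GLN1 was 0.067 and 0.16 with those scalings, 0.097 in both length settings, and 0.11 to 0.12 with a library left out.

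Fitted signs turned positive for LEU1 (0.0003), LYS4 (0.026), LYS12 (0.034) and HIS4 (0.041) with library-size scaling, and for HIS4 with DESeq2 (0.0011) and limma on deposited values (0.0007). With a library left out, signs turned for 8 members, whose log2 fold changes ran from -0.042 to 0.038 for HIS4, -0.11 to 0.036 for LEU1, -0.11 to 0.031 for BAT2, -0.022 to 0.0011 for LYS4, -0.031 to 0.021 for LYS12, -0.23 to 0.016 for LYS21, -0.14 to 0.0087 for TRP5 and -0.36 to 0.0087 for ARO4. The cause was not tested. With 2 libraries per group, changes smaller than those simulated may be missed, and so may some of the simulated sizes. MF(ALPHA)2, 1.86-fold lower in TUDCA, was not called (edgeR adjusted p = 0.108).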

Other observations

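Amino acid permeases, through which an auxotroph takes up what it cannot make, lay close to their control level. Of 10 permease genes edgeR and DESeq2 called 0, and 0 had an unadjusted p under 0.05, with a median log2 fold change of -0.017, which was 0.060 without Ctrl replicate 2. GNP1, a glutamine permease gene with the smallest p of the list, was at 202 and 219 CPM in Ctrl and 229 and 228 CPM in TUDCA, both TUDCA libraries lying above both Ctrl libraries. Its log2 fold change was 0.12 (edgeR adjusted p = 0.581). LYP1, the lysine permease gene, was at 168 and 188 CPM in Ctrl and 175 and 184 CPM in TUDCA, and its groups overlapped. BAP2, a branched-chain amino acid permease gene, was at 185 and 219 CPM in Ctrl and 212 and 212 CPM in TUDCA, where Ctrl replicate 1 was the lowest and Ctrl replicate 2 the highest.

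Genes of serine, proline and asparagine synthesis had a median of -0.080, with 8 of 9 fitted values below 0. edgeR and DESeq2 called 0, and 0 had an unadjusted p under 0.05. ASN1, asparagine synthetase, had the smallest p, at 875 and 939 CPM in Ctrl and 765 and 789 CPM in TUDCA. The groups did not overlap, and the log2 fold change was -0.22 (edgeR adjusted p = 0.544). Of 5 genes of amino acid breakdown edgeR and DESeq2 called 0, and 0 had an unadjusted p under 0.05, with a median of 0.080, or 0.032 without Ctrl replicate 2. ARO10, a decarboxylase gene of aromatic amino acid breakdown, had the smallest p, at 241 and 318 CPM in Ctrl and 209.9 and 282 CPM in TUDCA, so the libraries with number 2 were the higher in both groups. CAR1, the arginase gene, was at 119 and 118 CPM in Ctrl and 133 and 119 CPM in TUDCA.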
